A study of Saccharomyces cerevisiae with 12 samples.

Results

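Budding yeast (Saccharomyces cerevisiae) carrying a deletion of GCR1 was compared with wild-type yeast on 4 of the 12 Agilent expression arrays of the series, all with RNA from cultures in 2% glucose. The 4 arrays were chosen by their titles, and they hold the strain labelled gcr1 null in 1 channel and wild type in the other. The other 8 arrays hold the strains labelled nup84 gcr1 double null and nup84 null, 4 arrays each. They were used to show where the gcr1 null differs from them. They also entered the shared fit, so their spread is part of every standard error and p-value given for the gcr1 null. The strain labelled gcr1 null was in Cy5 on arrays 1 and 2 and in Cy3 on arrays 3 and 4, and wild type was in the opposite dye. The design text describes biological replicates with technical dye swaps, so arrays 1 and 3 were read as sample 1 and arrays 2 and 4 as sample 2, which gives n = 2. No label gives the strain background, the mating type, the marker used for the deletion or the number of clones. Whether wild-type cultures were separate for each array is not labelled either. P-values measure only the spread between the samples of a strain, pooled over the 3 strains.

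Gcr1 is a DNA-binding activator that works with its partner Gcr2, usually beside sites bound by Rap1, and it is known for driving the high expression of glycolytic enzyme genes in yeast growing on glucose. Glycolysis carries nearly all of the carbon in such cells, which ferment glucose to ethanol and keep the genes for respiration, gluconeogenesis and alternative carbon sources low, a state called glucose repression. Rap1 also binds the promoters of most ribosomal protein genes, and gcr1 mutants are known to grow poorly on glucose. Nup84, the product of the other deleted gene of the series, belongs to the outer scaffold of the nuclear pore.

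Every value below is a log2 ratio of the deletion strain over wild type, after the probes of a gene were averaged and each array was centred on its median. The ± after a mean is the standard error (SE) from limma, which pools the spread of the samples of all 3 strains. A gene is said to have risen or fallen only where the Benjamini-Hochberg adjusted p of limma was under 0.05 over the 5636 genes measured. In the strain labelled gcr1 null 1966 genes were called, 34.9% of those tested, of which 971 (17.2%) rose and 995 (17.7%) fell. The count was 896 without sample 1, 535 without sample 2, 281 when the test itself asked for a change beyond 2-fold, and 4475 when arrays 1 and 4 and arrays 2 and 3 were read as the samples. Of the 246 genes named here, none that was called changed sign without sample 1 or without sample 2, which largely follows from the calls. Genes not called could change sign, as ACS2 did, with 0.39 in sample 1 and -0.03 in sample 2. The change was over 2-fold for 613 genes in the upward and 617 in the downward direction, called or not. Beyond 4-fold were 130 higher and 149 lower genes, and 109 of the 149 encode proteins of the cytosolic ribosome.

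The arrays resembled each other by sample and by dye. Across genes arrays 1 and 3 correlated at 0.8185 and arrays 2 and 4 at 0.8139, while arrays that shared the dye orientation correlated at 0.8372 (1 and 2) and 0.8909 (3 and 4), and the remaining pairs at 0.7164 and 0.7071. Of the 5636 genes, 3552 had 1 sign on all 4 arrays, 552 changed sign with the dye and 343 with the sample. Of the 1966 called genes, 1931 had 1 sign on all 4 arrays and 8 changed sign with the dye. Samples 1 and 2 correlated at 0.8699, with an SD over genes of 0.917 and 1.003. Medians of the nuclear chromosomes lay between -0.04 (XII) and 0.16 (IX), so no whole nuclear chromosome stood apart in this strain.

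**Figure D1:**
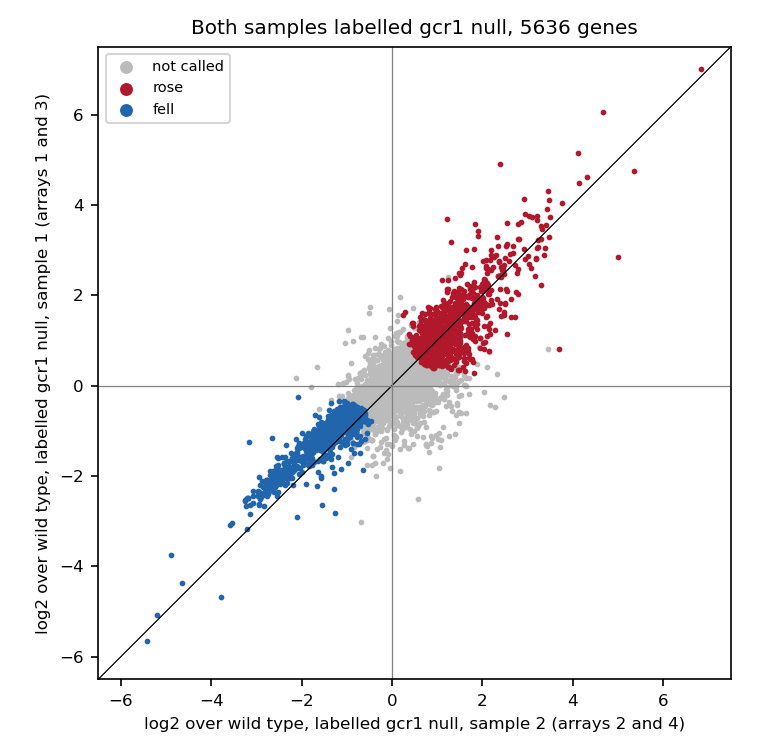
Each of the 5636 genes is placed by its log2 ratio over wild type in sample 1 (vertical axis, mean of arrays 1 and 3) and sample 2 (horizontal axis, mean of arrays 2 and 4) of the strain labelled gcr1 null; colours mark the 971 genes that rose, the 995 that fell and the rest, and the line marks equal values. The samples correlated at 0.8699, and GCN4 lies at the upper right end (7.02 in sample 1 and 6.85 in sample 2).

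The deleted gene itself did not read as lost. GCR1 had 0.94, 1.36, 0.85 and 1.17 on arrays 1 to 4 of the strain labelled gcr1 null, above 0 on each, and rose by 1.08 ± 0.21 (limma, adjusted p = 0.0045). Its mean was 0.78 in the double null (adjusted p = 0.017) and 0.47 in the nup84 null (adjusted p = 0.16). Where its 2 probes lie relative to the deleted part of the gene is not known here, so the ratio does not check the label, and the strain is called by its label throughout. NUP84, present in this strain, had -0.54, -0.48, -0.47 and -0.46 and was not called (-0.49 ± 0.24, adjusted p = 0.15), against -3.51 and -2.88 in the samples of the nup84 null. The genes next to GCR1 in the assembly R64 gene table, GPI2 at -0.26 and YTA6 at 0.19, were not called either.

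Factors known to act with Gcr1 did not move as 1 class. The list of 15 such genes held 3 that rose, 4 that fell and 8 that were not called. Such small counts stand beside 17.2% that rose and 17.7% that fell over all genes, and a difference from those shares was not tested. The median of the list was 0.09, against 0.03 over all genes. TYE7, a helix-loop-helix activator of glycolytic genes, had 1.94, 1.98, 1.74 and 2.04 on the 4 arrays and rose by 1.93 ± 0.25 (adjusted p = 0.00081). RAP1 fell by 0.74 on the log2 scale, and ABF1, another general regulatory factor, fell by 0.79. HMO1, an HMG-box protein of ribosomal protein and rRNA genes, fell by 1.18, and SPT15, which encodes the TATA-binding protein, fell by 1.45. GCR2 had -0.16, 0.32, 0.07 and 0.14, near 0 on each array (0.09 ± 0.28, adjusted p = 0.83). FHL1, IFH1 and SFP1, regulators of ribosomal protein genes, had -0.04, -0.17 and 0.28 and were not called. CRF1, a corepressor that binds Fhl1, was called at 0.95, but its values were -0.03 and -0.26 on arrays 1 and 2 and 2.39 and 1.70 on arrays 3 and 4, so it was above 0 in 1 dye orientation only.

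Transcripts of the glycolytic enzymes were far lower in the strain labelled gcr1 null, and the largest decreases of the whole comparison were in the lower part of the pathway. Of the 19 genes of the list, 12 fell, 3 rose and 4 were not called, with a median of -1.43. ENO2, an enolase gene, had -5.07, -4.55, -6.24 and -6.28 and fell by 5.53 ± 0.23 on the log2 scale, the lowest mean of all genes and a 46.3-fold decrease (adjusted p = 1.5e-05). GPM1, the major phosphoglycerate mutase gene, had -4.58, -4.31, -5.59 and -6.09 and fell by 5.15 ± 0.27, a 35.4-fold decrease (adjusted p = 3.2e-05). ENO1, the other enolase gene, had -4.27, -3.22, -5.10 and -4.36 and fell by 4.24 ± 0.41. The least negative of these values was -3.22, so no array of either sample came near the wild-type level.

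Elsewhere in the pathway the decreases were smaller. TPI1, encoding triose phosphate isomerase, had -2.70, -2.58, -3.63 and -3.84 and fell by 3.19 ± 0.35. PGK1, for phosphoglycerate kinase, had -1.82, -2.18, -2.97 and -3.30 and fell by 2.57 ± 0.48. TDH3, the main glyceraldehyde-3-phosphate dehydrogenase gene, fell by 2.50 ± 0.36, and its relative TDH2 fell by 1.66 ± 0.43. FBA1, for aldolase, fell by 1.94 ± 0.30. PGI1, which encodes the isomerase at the head of the pathway, fell by 1.43 ± 0.26. The phosphofructokinase subunits PFK1 and PFK2 fell by 0.70 and 0.84, the smallest decreases that passed the test in this list. CDC19, the pyruvate kinase gene at the end of the pathway, had -2.04, -2.23, -3.21 and -3.65 and fell by 2.78 ± 0.35. Each of these genes was lower on arrays 3 and 4 than on arrays 1 and 2, and each was below 0 on all 4.

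The 3 genes that rose encode enzymes or relatives of enzymes that wild-type cells express weakly on glucose. HXK1, a hexokinase gene repressed by glucose, had 4.95, 4.20, 4.03 and 4.08 and rose by 4.31 ± 0.37, a 19.9-fold increase. GLK1, for glucokinase, had 3.37, 2.87, 2.80 and 2.20 and rose by 2.81 ± 0.38. GPM2, a paralog of GPM1 with no established mutase activity, had 4.87, 5.26, 4.62 and 5.47 and rose by 5.05 ± 0.27, a 33.2-fold increase. HXK2, the hexokinase gene used on glucose, had 0.31 and 0.30 on arrays 1 and 2 and -0.33 and -0.30 on arrays 3 and 4, so its sign followed the dye and it was not called. TDH1 likewise had 0.27 and 0.61 against -0.91 and -0.75 and was not called. GPM3 at -0.68 and PYK2 at 0.21 were not called.

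**Figure D2:**
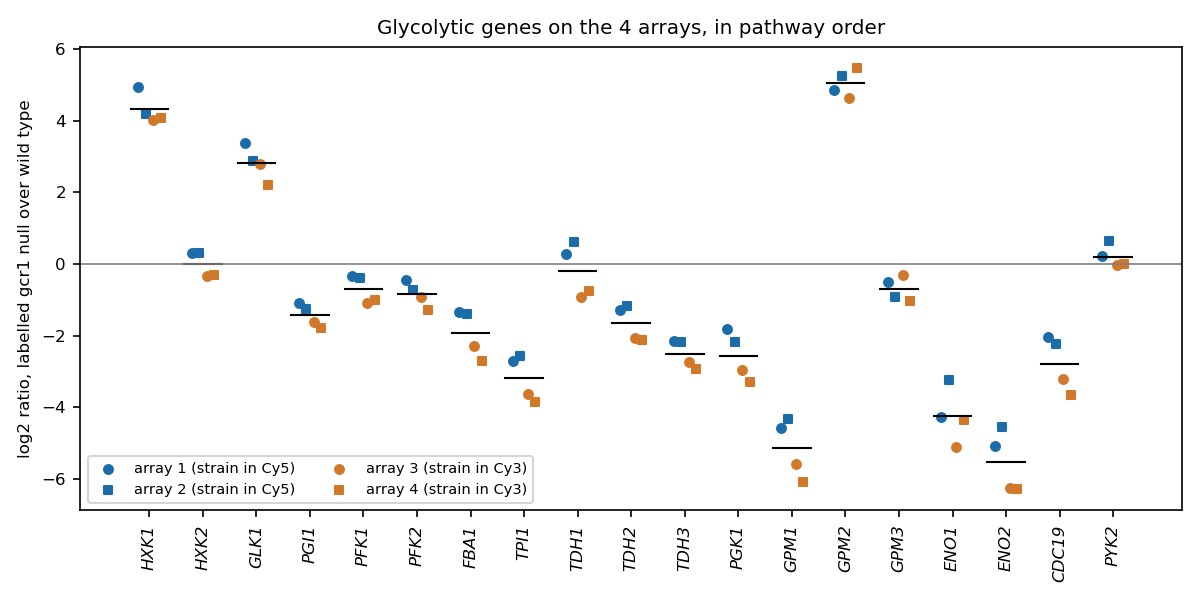
Log2 ratios of the strain labelled gcr1 null over wild type (vertical axis) are shown for the 19 glycolytic genes in pathway order; points are the 4 arrays, coloured by the dye of the deletion strain, and the horizontal bar is their mean. ENO2 and GPM1 reach -5.53 and -5.15, while HXK1, GLK1 and GPM2 lie above 0 on all 4 arrays.

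Many metabolic steps are served by 2 genes, 1 of which wild-type cells use on glucose. Some such partners moved apart in the strain labelled gcr1 null. The pairs were chosen with earlier results of these data known, and over all genes 17.2% rose and 17.7% fell. Of the 63 pairs measured, 13 had 1 member that rose and 1 that fell, 10 had both that rose, 5 had both that fell, 26 had a single member called and 9 had none. The widest pair was GPM2 and GPM1, 10.2 apart on the log2 scale. ADH2, the alcohol dehydrogenase that consumes ethanol, rose by 2.34, and ADH1, which makes it, fell by 2.43. ALD4, the mitochondrial aldehyde dehydrogenase, rose by 3.25, and ALD6, its main cytosolic partner on glucose, fell by 2.64. PGM2 rose by 2.40 and PGM1 fell by 1.29, both phosphoglucomutase genes. Outside carbon metabolism the opposite pairs were HEF3 (1.64) over YEF3 (-1.11), for translation elongation factor 3, BAT2 (1.85) over BAT1 (-0.95), for branched-chain aminotransferases, URA8 (1.56) over URA7 (-1.86), for CTP synthases, URA10 (2.48) over URA5 (-1.41), for orotate phosphoribosyltransferases, and LEU4 (1.16) over LEU9 (-0.90), for isopropylmalate synthases. In all 13 pairs the order of the members was the same on the 4 arrays, which largely follows from their opposite calls. Whether the probes tell such partners apart was not checked.

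**Figure D3:**
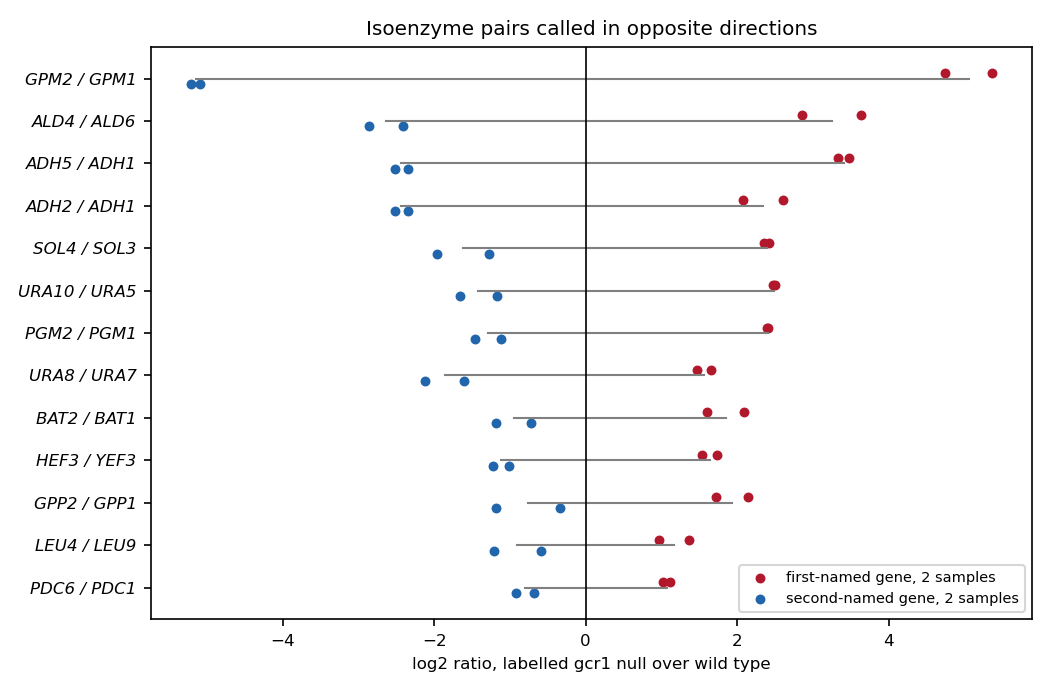
For the 13 isoenzyme pairs with members called in opposite directions, points give log2 ratios over wild type (horizontal axis) for the strain labelled gcr1 null in samples 1 and 2, red for the first-named gene and blue for the second, and the grey line joins their means. The samples of a first-named gene lie apart from those of its partner, which largely follows from the choice of pairs with opposite calls. The gap runs up to 10.2 for GPM2 and GPM1.

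Genes of the path from pyruvate to ethanol and acetate split accordingly. Of 17 genes, 9 rose and 4 fell, with a median of 1.07. ADH5, a minor alcohol dehydrogenase gene, had 3.79, 3.61, 3.16 and 3.05 and rose by 3.40 ± 0.26, the largest increase of the list. ACS1, the acetyl-CoA synthetase of cells using acetate, rose by 1.95, while ACS2, the form used on glucose, had 0.18 (adjusted p = 0.54). ACH1, a mitochondrial CoA transferase of acetate, rose by 2.55. The pyruvate decarboxylase genes PDC1 and PDC5 fell by 0.80 and 0.81, and PDC6, a weakly expressed form, rose by 1.07. PDC1 showed the dye split plainly, with -0.14 and -0.27 on arrays 1 and 2 and -1.23 and -1.57 on arrays 3 and 4.

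Glycerol and dihydroxyacetone genes were mostly higher, with 7 of 11 that rose and 1 that fell. DAK2, a dihydroxyacetone kinase gene, had 4.16, 3.24, 3.36 and 3.20 and rose by 3.49 ± 0.22. GCY1, a reductase gene linked to glycerol breakdown, had 3.94, 3.32, 3.53 and 2.88 and rose by 3.42 ± 0.31. GUT2, the mitochondrial glycerol-3-phosphate dehydrogenase gene, rose by 1.82, and GPP2, a glycerol-phosphatase gene, by 1.93, while its partner GPP1 fell by 0.76. In the pentose phosphate pathway 4 of 12 genes rose (33.3%) and 2 fell (16.7%), beside 17.2% and 17.7% of all genes. RKI1, the ribose-5-phosphate isomerase gene, had -2.28, -2.90, -2.39 and -3.26 and fell by 2.71 ± 0.27. The minor forms TKL2, NQM1, SOL4 and GND2 rose by 2.71, 2.60, 2.39 and 1.52, whereas the main forms TKL1, TAL1 and GND1 were not called and SOL3 fell by 1.61.

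Glucose transporter and sensor genes gave some increases and no decrease. Of 22 transport and sensing genes, 8 rose, with a median of 0.64. The count of 8 includes HXT14, whose arrays read 0.94, -1.69, 2.21 and 2.18 and do not share a sign. HXT4, a transporter induced at low glucose, had 1.75, 2.16, 1.83 and 2.16 and rose by 1.98 ± 0.41. MTH1, a repressor of transporter genes that is lost when glucose is sensed, had 1.32, 1.54, 1.89 and 1.91 and rose by 1.67 ± 0.23. The high-affinity transporters HXT6 and HXT7 had 0.86 and 0.74 in sample 1 and 1.93 and 2.14 in sample 2 and were not called (adjusted p = 0.18 and 0.17). Their SEs also hold the spread of the nup84 null, whose samples had 5.49 and 1.64 for HXT6 and 5.56 and 1.79 for HXT7. For 6 of the 22 genes the sign followed the dye. The widest of these was HXT13, named here after its values were seen, with -1.38 and -2.40 on arrays 1 and 2 and 2.86 and 2.11 on arrays 3 and 4. The means of its 2 probes over the 4 arrays lay 0.69 apart and differed in sign.

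Regulators of glucose repression were among the genes that rose. ADR1, an activator of ethanol and fatty acid use, had 2.66, 2.37, 2.85 and 2.36 and rose by 2.56 ± 0.22. CAT8, the activator of gluconeogenic genes, had 1.41, 1.70, 2.20 and 2.45 and rose by 1.94 ± 0.21. SIP4, which acts at the same promoter elements, rose by 1.32, and USV1, a zinc finger factor of nonfermentable carbon, by 1.80. The repressor MIG1 rose by 0.97, and TUP1, of the general corepressor, fell by 1.14. SNF1, the kinase that relieves repression, had a mean of 0.03 (adjusted p = 0.92), its subunit genes SNF4 and GAL83 fell by 0.90 and 0.64, and SIP2 rose by 0.78. In all 6 of the 19 genes of this list rose and 3 fell.

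Gluconeogenic and glyoxylate cycle genes were mostly higher too. Of 20 such genes 13 rose and none fell, with a median of 1.20. JEN1, the lactate and pyruvate carrier, had 2.60, 2.47, 3.22 and 2.75 and rose by 2.76 ± 0.21. PYC1, a pyruvate carboxylase gene, had 3.59, 2.15, 3.06 and 1.67 and rose by 2.62 ± 0.32, with sample 1 the higher on both dyes, while PYC2 had a mean of 0.18. FBP1 and PCK1, the enzymes particular to gluconeogenesis, rose by 1.44 and 0.88. MLS1 and ICL1 of the glyoxylate cycle rose by 1.24 and 0.82, and IDP2, the cytosolic isocitrate dehydrogenase, by 1.54. PDH1, a 2-methylcitrate dehydratase gene of propionate breakdown and 1 of the 15 largest increases, had 4.44, 4.11, 4.79 and 4.52 and rose by 4.46 ± 0.20. Of 21 genes of the peroxisome and fatty acid oxidation, 5 rose (23.8%), 2 fell (9.5%) and 14 were not called. Over all genes 17.2% rose and 17.7% fell. The median of that list was 0.20, while SPS19, POT1, FAA1 and POX1 rose by 3.67, 3.42, 2.80 and 2.08.

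Most genes of mitochondrial respiration rose. In the TCA cycle 15 of 19 genes rose and none fell, with a median of 1.25. CIT3, a citrate and methylcitrate synthase, had 3.23, 2.97, 4.29 and 3.11 and rose by 3.40 ± 0.23. CIT1, the mitochondrial citrate synthase, had 3.81, 2.96, 3.33 and 2.61 and rose by 3.18 ± 0.29. CIT2, the peroxisomal form and the classic target of the retrograde pathway that reports mitochondrial state to the nucleus, had 3.07, 2.62, 2.57 and 2.40 and rose by 2.66 ± 0.27. All 4 succinate dehydrogenase genes rose, SDH2 by 1.98, SDH4 by 1.32, SDH1 by 1.28 and SDH3 by 1.10. LSC1, LPD1, IDH1 and MDH3 were not called.

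Of 42 respiratory chain and ATP synthase genes 33 rose and none fell, with a median of 1.08. CYB2, the lactate dehydrogenase of the mitochondrial intermembrane space, had 2.97, 3.42, 3.11 and 3.35 and rose by 3.21 ± 0.27. COX5B and CYC7, the forms of cytochrome oxidase subunit 5 and cytochrome c that are known as hypoxic, rose by 2.14 and 1.82, beside 1.07 and 1.14 for the aerobic forms COX5A and CYC1. SUE1, required for degradation of unstable cytochrome c, had 3.98, 3.64, 4.11 and 3.91 and rose by 3.91 ± 0.23. Genes carried by mitochondrial DNA were higher as well, as seen after the values were known: 11 of 19 rose and none fell, with array medians of 0.79, 0.83, 0.87 and 0.81. The ATP synthase subunit genes among them, ATP6, OLI1 and ATP8, rose by 1.84, 1.64 and 1.54, and COX1, COX2 and COX3 had 0.44, 0.38 and 0.59 and were not called.

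No gene of the mitochondrial ribosome rose. Of 69 mitochondrial ribosomal protein genes 11 fell (15.9%, near the 17.7% of all genes that fell). The median was -0.39, and MRPL49 and RSM26 were the lowest at -1.16 and -1.15. Of 15 genes for activators of mitochondrial translation 12 were not called. The exception in size was PET122, an activator of the COX3 mRNA, with -3.88, -3.86, -4.84 and -5.43. It fell by 4.50 ± 0.24, a 22.7-fold decrease and the third lowest mean of all genes (adjusted p = 3.2e-05), and its 2 probes lay 0.048 apart. PET54 and PET494, which act with PET122 on the same mRNA, had -0.25 (adjusted p = 0.42) and 1.16 (adjusted p = 0.0038).

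Nearly every gene of the cytosolic ribosome fell. Of 136 ribosomal protein genes 135 fell, 79 of 80 for the large subunit with a median of -2.29 and 56 of 56 for the small subunit with a median of -2.27. Array medians over the 136 genes were -1.78, -2.12, -2.32 and -2.94, and sample 2 was lower than sample 1 for all 136. The decreases were even in size, with an SD over genes of 0.394 and the central 90% of genes between -2.84 and -1.71. RPL9A had -2.63, -2.89, -3.45 and -4.22 and fell by 3.30 ± 0.24, the lowest of the class. RPS26B followed with -2.48, -2.68, -3.20 and -3.60 and fell by 2.99 ± 0.23. RPL15B was the gene not called, with 0.30, -0.17, 0.05 and -0.76, and RPL7B was called at -1.16 with unlike arrays (0.19, -2.69, -0.69 and -1.45). Many of these genes are near-identical duplicates whose probes may share signal, so the count is not one of independent genes.

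The machinery that builds and supplies ribosomes was lower to a smaller extent. Of 97 ribosome assembly genes 67 fell and 0 rose (median -1.18), and BRX1, NOP56 and NSR1 fell by 2.18, 2.13 and 2.06. Of 32 genes for RNA polymerases I and III 15 fell and none rose. RPA34, a subunit of polymerase I, fell by 2.28, and RPC19 and RPC40, subunits shared by both enzymes, by 1.56 and 1.44. For RNA polymerase II 7 of 10 subunit genes fell. RPO26, RPB5 and RPB8, shared by all 3 polymerases, fell by 1.58, 1.43 and 1.36, while the large catalytic subunits RPO21 and RPB2 had -0.10 and -0.21 and were not called. Translation factors gave 27 of 39 that fell and 2 that rose, HEF3 and TIF4632. Of 21 aminoacyl-tRNA synthetase genes 13 fell, MES1 by 1.71 and GLN4 by 1.50, and 1 rose, GRS2, the second glycyl-tRNA synthetase gene, by 1.27.

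**Figure D4:**
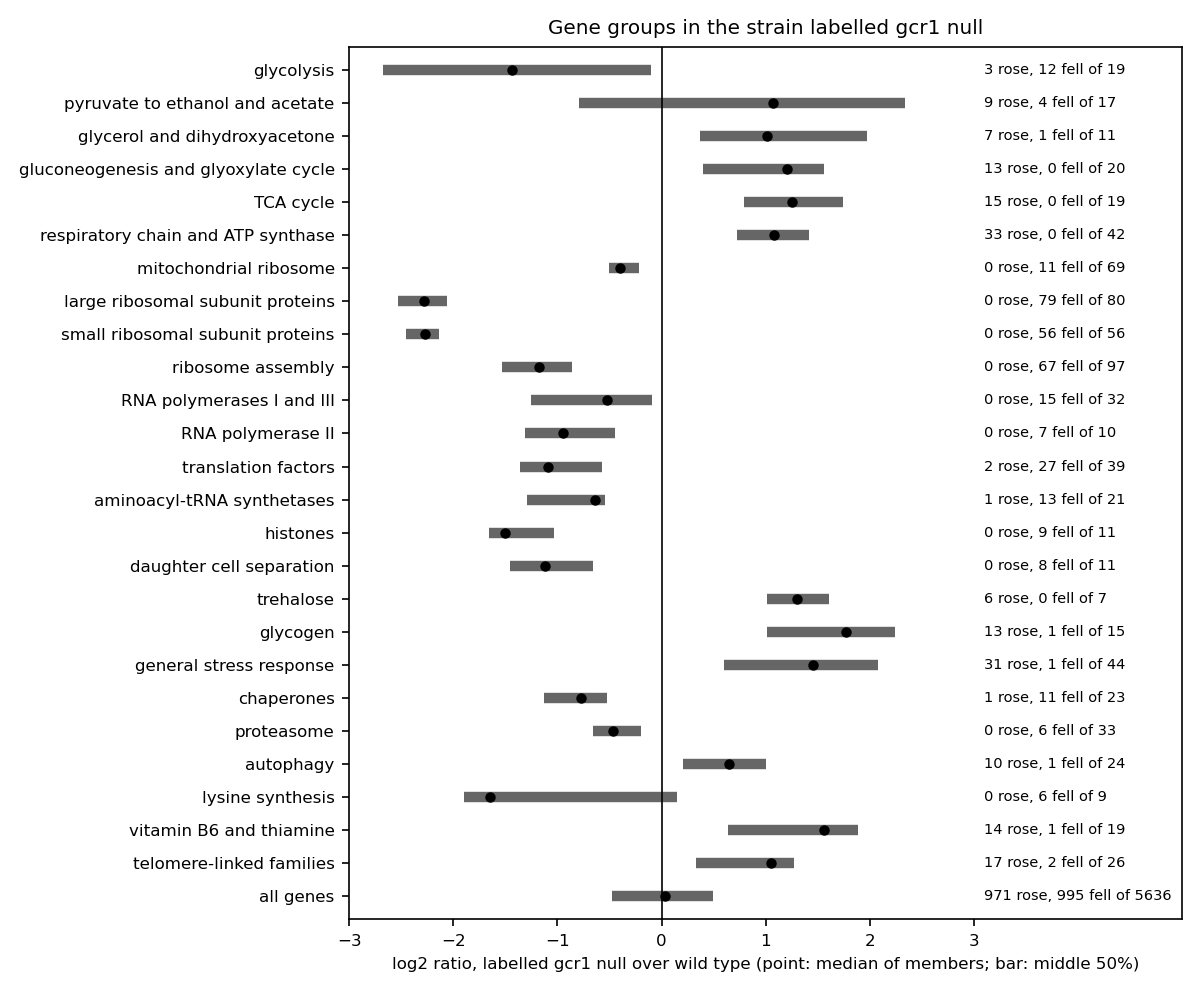
For 25 gene groups and all 5636 genes, the point is the median and the grey bar the middle 50% of members' log2 ratios of the strain labelled gcr1 null over wild type (horizontal axis), with counts of genes that rose and fell at the right. The medians of both ribosomal subunits are -2.29 and -2.27, while TCA cycle, respiratory, storage carbohydrate and stress groups lie above 0.

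GCN4 had the highest mean of all genes. Gcn4 is the activator of amino acid biosynthesis genes and is known to be controlled mainly at translation. Its transcript had 7.27, 6.95, 6.76 and 6.75 and rose by 6.93 ± 1.02, a 122-fold increase (adjusted p = 0.0014). The samples of this strain had 7.02 and 6.85, close to each other, while the SE also holds the spread of the nup84 null, whose samples had 1.51 and 7.42. The regulators of Gcn4, GCN20 and GCN1, had -0.67 (adjusted p = 0.038) and -0.53 (adjusted p = 0.074).

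Amino acid synthesis genes did not move as 1 class. Lysine synthesis was lower, with 6 of 9 genes that fell and none that rose. LYS9, for saccharopine dehydrogenase, had -2.70, -3.20, -3.47 and -3.98 and fell by 3.34 ± 0.26, and LYS20, LYS2, LYS1, LYS4 and LYS12 fell by 2.01, 1.90, 1.66, 1.65 and 0.99. Arginine and proline genes gave 4 of 15 that rose and none that fell. CPA1, of carbamoyl phosphate synthetase, had 3.22, 1.28, 3.15 and 1.32, with sample 1 far above sample 2, and rose by 2.24 ± 0.41. ARG4 rose by 1.83, while ARG1 had the same mean with a wider SE and was not called (1.83 ± 0.70, adjusted p = 0.075). The SE of ARG1 also holds the spread of the nup84 null, whose samples had -2.29 and 1.38. Histidine genes gave 1 that rose and 2 that fell of 7 (14.3% and 28.6%). Aromatic genes gave none that rose and 3 that fell of 14 (21.4%). These are small counts, beside 17.2% that rose and 17.7% that fell over all genes.

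Sulfur and nitrogen genes moved in both directions. STR3, a cystathionine beta-lyase gene, had 3.21, 1.89, 3.98 and 3.20 and rose by 3.07 ± 0.27, and MET28, a cofactor of the sulfur activator complex, rose by 2.67. SAM1, an S-adenosylmethionine synthetase gene, fell by 2.42, while its partner SAM2 was not called. In all 8 of 24 sulfur genes rose and 3 fell. Of 18 nitrogen assimilation genes 10 rose and 5 fell. GDH2, the glutamate dehydrogenase that releases ammonium, rose by 2.52, GLN1, for glutamine synthetase, by 1.65, and the ammonium carrier MEP1 by 1.70, while the aspartate aminotransferase AAT1 fell by 1.51. CHA1, the serine and threonine deaminase gene that those amino acids induce, had -3.46, -4.72, -4.03 and -5.07 and fell by 4.32 ± 0.36. SER3, for the first step of serine synthesis, had 3.38, 3.03, 2.82 and 2.32 and rose by 2.89 ± 0.28.

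Vitamin B6 and thiamine genes rose in 14 of 19 cases, with a median of 1.56, and BUD16, a pyridoxal kinase gene, fell by 0.64. SNZ1, which makes pyridoxal phosphate with SNO1, had 5.45, 4.33, 4.84 and 3.92 and rose by 4.63 ± 0.36. SNO1, its divergently transcribed neighbour, had 3.98, 3.35, 4.24 and 3.61 and rose by 3.79 ± 0.27. THI4, for thiazole synthesis, rose by 2.60, and the activator THI2 by 1.75. THI5, THI11, THI12 and THI13, near-identical copies whose probes may share signal, rose by 1.32, 1.59, 1.56 and 1.04. THI13 had 0.26 and -0.0015 on arrays 1 and 2 and 2.06 and 1.85 on arrays 3 and 4, so its increase lay mainly in 1 dye orientation. In pyrimidine synthesis 5 of 12 genes rose and 4 fell. URA1, for dihydroorotate dehydrogenase, fell by 2.49, URA4 by 1.71, and URA2, for the first steps of the pathway, rose by 1.69. In purine metabolism 2 of 18 rose and 7 fell. AAH1, adenine deaminase, and APT1, adenine phosphoribosyltransferase, fell by 2.48 and 2.24, and IMD2, IMP dehydrogenase, rose by 2.30.

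Stress and storage genes were higher. Of 44 general stress genes 31 rose and 1, SOD1, fell, with a median of 1.45. HSP12, a small membrane stress protein, had 6.21, 4.48, 5.93 and 4.88 and rose by 5.37 ± 0.31, the second highest mean of all genes and a 41.4-fold increase. Sample 1 was above sample 2 on both dyes for HSP12 and for NCE103, carbonic anhydrase, which had 5.25, 2.88, 4.55 and 1.89 and rose by 3.64 ± 0.54. GSC2, the stress form of glucan synthase, had 3.95, 3.58, 3.50 and 3.43 and rose by 3.62 ± 0.23. The activator gene MSN4 rose by 1.53, and its partner MSN2 was not called. All 6 called trehalose genes of 7 rose, TSL1 by 2.15, and 13 of 15 glycogen genes rose, with GPH1, glycogen phosphorylase, at 2.88 and GLC3, the branching enzyme, at 2.80.

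Chaperone genes were often lower and autophagy genes often higher. Of 23 chaperone genes 11 fell and 1, SSE2, rose. SSA2, a constitutive Hsp70, fell by 1.86, and the ribosome-bound SSB1 and SSB2 fell by 1.70 and 1.48. The inducible SSA4 and HSP82 had 0.37 (adjusted p = 0.40) and 0.90 (adjusted p = 0.054). Of 33 proteasome genes 6 fell (18.2%, near the 17.7% of all genes that fell) and none rose. Autophagy genes gave 10 of 24 that rose, ATG19 by 1.75 and ATG8, the ubiquitin-like protein of the autophagosome, by 1.61, and 1 that fell, ATG27.

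Histone genes and genes of daughter cell separation were lower, whereas most cyclins were not called. Of 11 histone genes 9 fell, HTB2 by 2.22 and HTA1 by 1.83, and HHT2 and CSE4 were not called. Of 11 separation genes 8 fell. SUN4, a cell wall protein of septation, had -1.48, -1.91, -2.16 and -2.63 and fell by 2.05 ± 0.27, and DSE1 and the glucanase gene SCW11 fell by 1.95 and 1.60. Of 18 cyclin and inhibitor genes 16 were not called. PCL5, a Pho85 cyclin that acts on Gcn4, had 2.69, 2.34, 2.48 and 1.92 and rose by 2.36 ± 0.27, and PCL1 rose by 1.32.

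Some genes near telomeres and of meiosis rose. Of 26 telomere-linked family genes 17 rose and 2 fell. COS8, of a family of membrane protein genes, had 2.80, 4.11, 2.88 and 5.89 and rose by 3.92 ± 0.81, with the arrays of sample 2 the higher. COS7, COS1, COS3 and COS2 rose by 2.76, 1.82, 1.45 and 1.38, and these genes are similar in sequence. Of 16 meiosis and sporulation genes 8 rose and none fell. The medians of this list were 0.13 and 0.23 on arrays 1 and 2 and 1.20 and 1.31 on arrays 3 and 4. The increase of the list thus lay mainly in 1 dye orientation. REC8, the meiotic cohesin, had 2.03, 2.89, 3.20 and 3.27 and rose by 2.85 ± 0.23. SPR3, a sporulation septin, was called at 2.03 with 0.06 and 1.47 on arrays 1 and 2 and 3.32 and 3.27 on arrays 3 and 4. IME1, the master regulator of meiosis, was called at 0.66 (adjusted p = 0.048) with -0.27 on array 1.

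Mating-type markers differed between the samples. None of 7 a-cell genes and none of 5 alpha-cell genes was called. The median of the a-cell genes was -0.91 in sample 1 and 0.34 in sample 2, and that of the alpha-cell genes 0.29 in sample 1 and -0.97 in sample 2. Within sample 2 the a-cell medians were unlike, -0.48 on array 2 and 1.16 on array 4. On array 4 all 7 a-cell genes lay above 0, from 0.46 to 1.57, and all 5 alpha-cell genes below 0, from -2.54 to -0.26. On array 3 all 5 alpha-cell genes lay above 0, from 0.37 to 1.77, and 1 of 7 a-cell genes did. STE2, the receptor of a cells, had -0.83, -0.48, -1.30 and 1.31, and STE3, the receptor of alpha cells, had 0.86, -0.76, 1.61 and -1.18. The means of the 2 STE3 probes over the 4 arrays lay 0.60 apart and differed in sign. The same order of samples 1 and 2 was seen in the other strains, with 1.76 and -1.50 for STE3 in the double null and 0.41 and -0.77 in the nup84 null, and with -1.79 and 0.74 for STE2 in the double null and -0.31 and 0.61 in the nup84 null. Of 9 haploid-specific genes RME1 rose by 1.04, and HO and NEJ1 fell by 1.04 and 0.85. These are 11.1% that rose and 22.2% that fell, beside 17.2% and 17.7% of all genes. Among genes often used as strain markers URA3 and LEU2 rose by 2.32 and 1.72, LYS9 and LYS2 fell, and HIS3, TRP1, ADE2, MET17 and CAN1 were not called. What part such differences between cultures or strain backgrounds had in the other results was not tested.

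Set against the nup84 null in the same fit, few genes separated the strains. The difference, gcr1 null minus nup84 null, was called for 29 genes (0.515%), 22 higher (0.39%) and 7 lower (0.124%), and 704 genes reached an unadjusted p under 0.05. The count was 3 without sample 1 of the gcr1 null, 5 without its sample 2 and 425 without the double null in the fit. In the nup84 null the median of chromosome I was 0.86 and 0.84 on arrays 2 and 4, beside -0.10 and 0.14 on arrays 1 and 3, and what part this had in the shared spread was not tested. Wild type was measured against both strains, so values are given side by side.

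The largest of the 7 downward differences were at GPM1, ENO2 and PET122. GPM1 had -5.09 and -5.20 in the samples labelled gcr1 null, against -0.63 and -0.98 in those of the nup84 null, a difference of -4.34 ± 0.39 (limma, adjusted p = 0.0041). ENO2 had -5.65 and -5.41 in the gcr1 null, against -1.47 and -1.72 in the nup84 null, a difference of -3.94 ± 0.32 (adjusted p = 0.0041). PET122 had -4.36 and -4.64 in the gcr1 null, against -0.60 and -0.88 in the nup84 null, a difference of -3.76 ± 0.34 (adjusted p = 0.0041). RNR4, a ribonucleotide reductase subunit gene, had -1.05 and -0.89 in the gcr1 null, against 1.89 and 1.96 in the nup84 null, a difference of -2.90 ± 0.38 (adjusted p = 0.019). LYS9, YCL021W-A, an open reading frame with no assigned role here, and SGA1, the sporulation glucoamylase, completed the 7 lower genes, with differences of -2.57, -3.07 and -1.71.

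The 22 higher genes included CIT2, for the peroxisomal citrate synthase, and DIP5, a gene of amino acid uptake. CIT2 had 2.82 and 2.51 in the gcr1 null, against -0.23 and -0.90 in the nup84 null, a difference of 3.23 ± 0.39. DLD3, a lactate dehydrogenase gene of the retrograde set, differed by 2.91 ± 0.41. DIP5, the dicarboxylic amino acid permease, had 2.62 and 1.78 in the gcr1 null, against -0.98 and -0.64 in the nup84 null, a difference of 3.01 ± 0.35. GLN1 and GLT1, of glutamine and glutamate synthesis, differed by 2.35 and 2.09. IMD2 had 2.50 and 2.11 in the gcr1 null, against -1.44 and -1.65 in the nup84 null, and the largest difference upward, 3.85 ± 0.63. DAK2, INM1, for inositol monophosphatase, PDH1 and CIT3 differed by 2.98, 2.78, 2.61 and 2.62, and NUP84 itself by 2.70. TYE7 had 1.84 and 2.01 in the gcr1 null, against -0.07 and -0.85 in the nup84 null, a difference of 2.39 ± 0.36. The remaining 10 genes, of which those outside the naming rule were added after their values were seen, were SNO1, GLO4, STR3, ADH5, FAA1, SUE1, FDC1, SPO20, JEN1 and URA3, with differences from 2.63 for SNO1 to 1.89 for URA3.

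Several named genes had near values in both strains. HSP12 had a mean of 5.37 in the gcr1 null, against 5.70 in the nup84 null, and HXK1 4.31 against 4.32. OM45, an outer mitochondrial membrane protein gene, had 2.87 against 2.72, ADR1 2.56 against 2.24 and SER3 2.89 against 2.81. None of these differences was called, which does not show that the strains were alike.

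**Figure D5:**
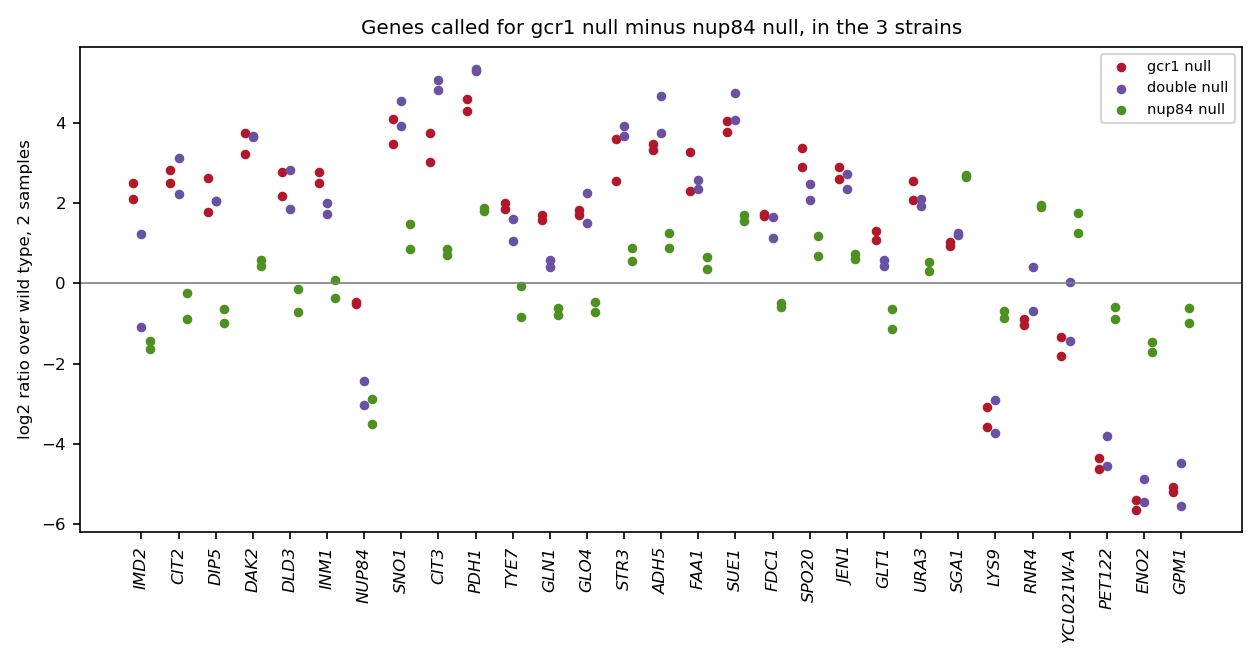
Log2 ratios over wild type (vertical axis) are given for the 29 genes called for gcr1 null minus nup84 null, ordered by that difference; each strain has 2 points, its samples, with the gcr1 null in red, the double null in purple and the nup84 null in green. GPM1, ENO2 and PET122 lie between -5.65 and -3.80 in the samples of the gcr1 null and double null and between -1.72 and -0.60 in those of the nup84 null.

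No gene passed the adjusted test between the strain with both deletions and the gcr1 null, a count that depended on the fit. Of 5636 differences, double null minus gcr1 null, limma called 0 (0%), 0 higher (0%) and 0 lower (0%), with a lowest adjusted p of 0.068, and 298 genes reached an unadjusted p under 0.05. The count was 8 with each array as 1 observation, all 8 higher in the double null, and 2340 when arrays 1 and 4 and arrays 2 and 3 were taken as the samples. In the double null the median of chromosome II was 0.71, 0.70, 0.66 and 0.59 on the 4 arrays, beside 0.03, 0.02, -0.02 and -0.10 in the gcr1 null. The 5 genes at the lowest adjusted p, named after their values were seen, were HSP26, PHO84, ARO10, SPL2 and ARO9. HSP26, a small heat shock protein, had 6.13 and 4.63 in the double null, against 1.70 and 1.48 in the gcr1 null, a difference of 3.79. PHO84, the high-affinity phosphate carrier, had 3.41 and 2.33 in the double null, against -0.04 and -0.09 in the gcr1 null. NUP84 had -3.04 and -2.44 in the double null and a mean of -0.49 in the gcr1 null, a difference of -2.25 that was not called (adjusted p = 0.11), so a loss of that size was not detectable by this test. ENO2, GPM1 and PET122 had means of -5.17, -5.03 and -4.18 in the double null, beside -5.53, -5.15 and -4.50 in the gcr1 null.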

How the data were processed

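The authors deposited 1 value per probe and array, taken here as a log2 ratio (Cy5 over Cy3). Neither base nor direction is stated: the range of the values gave the base, and the labelled dyes and the level of NUP84 gave the direction. No source used here says how the authors scaled or corrected them. The labels give Agilent's low-input linear amplification kit, which can change relative levels. Of 10807 probes, 9271 had 1 gene in the platform annotation, 0 several and 1536 none. Probes were averaged to 5636 genes (2026 genes with 1 probe). Signs of arrays 3 and 4 were turned, and each array was centred on its median (-0.162 to 0.099). Spot intensities were not used, which leaves dim and saturated spots unmarked, and precision is limited by n = 2 samples.

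Means of arrays 1 and 3 and of arrays 2 and 4 were fitted with limma 3.58.1 (lmFit, eBayes; R 4.3.3), 3 strains together with 3 residual degrees of freedom, and p-values were adjusted by Benjamini-Hochberg over all genes (threshold 0.05); the script was tested on simulated data. Differences between strains were contrasts of this fit. Members and the 62 gene lists were chosen with earlier results of these data known. Named were GCR1 and NUP84, the 15 highest and 15 lowest called genes with 1 sign on all arrays and probes, in each list the 6 largest or all members up to 20, isoenzyme pairs, and the 8 highest and lowest called strain differences; others, such as exceptions to a count and genes of mitochondrial DNA, were added after their values were seen. Alternatives covered the pairing, array-level fits, centring, scaling, probe choice, a fold limit, robust variance, the sample number as a replicate block and left-out samples, strains and genes. Figures were drawn with matplotlib 3.10.9.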

Additional observations from a re-analysis of the deposited data

Results flagged for a closer look

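DAK2 in the strain labelled gcr1 null had 4.16 on array 1, away from 3.24, 3.36 and 3.20 on arrays 2, 3 and 4. SPO20 had 2.51 on array 1, below 3.32, 3.28 and 3.42 on the others. The median of the cyclins and their inhibitors was -0.16 on array 2, beside 0.04, 0.05 and 0.07 on arrays 1, 3 and 4. Of 246 genes and 62 lists examined for 1 array far from the other 3, these 3 stood out. The limit used is passed 1 time in 20 by independent values. These arrays resemble each other by sample and by dye, so the count cannot be compared with that share.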

How the results depend on the processing

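For gcr1 null against wild type the count of 1966 became 4475 when array 1 was paired with array 4 and array 2 with array 3, 281 with the fold limit of 2, and 535 to 896 without 1 sample of this strain, where the lone sample is assumed to vary like the other strains. For gcr1 null minus nup84 null the count of 29 became 3149 with that other pairing, 123 with each array as 1 observation, a dye term and the sample as random block, 46 with arrays scaled to 1 spread, 3 with the fold limit, 3 to 5 without 1 sample, and 425 without the double null. For double null minus gcr1 null the count of 0 became 2340 with the other pairing and 8 with the array-level fit. The cause was not tested, apart from the fewer samples of the left-out fits. With the sample number as a replicate block the counts were 2210, 43 and 0; the differences between samples 1 and 2 correlated at 0.55 between the gcr1 null and the double null, -0.01 between the gcr1 null and the nup84 null and 0.10 between the nup84 null and the double null. The correlation was not shared by all strains and the labels do not say what the number marks, so no pairing was assumed. Other settings kept all 3 counts within 1.5 times. All settings kept 88 of the 246 named genes on their side of the threshold. None reversed a called gene, which without 1 sample largely follows from the call, among the 246 named genes. Of them, 52 lost the call without sample 1, 79 without sample 2 and 123 with the fold limit of 2. HXT14, IME1, RPL7B, NEJ1 and SGA1 lost it in the array-level fit, and PDC1 and PDC5 when arrays were scaled. Of 62 list medians 10 moved without sample 1 and 16 without sample 2 by more than the SD of the medians of samples 1 and 2. Spot brightness was not analysed here, so what low signal limits cannot be given.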

Other observations

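Across all genes the mean of arrays 3 and 4 minus the mean of arrays 1 and 2 of the strain labelled gcr1 null had an SD of 0.605. It was beyond 2 in size for 91 genes, and all 91 were higher where the deletion strain was in Cy3. Among the probes without a gene name 1501 had a value on all 4 arrays, of which 39 were higher and 41 lower by over 2-fold with 1 sign after turning. A further 94 unnamed probes exceeded 6 in size on every array before the signs were turned. The difference between samples 1 and 2 of the gcr1 null correlated across genes at 0.55 with that of the double null and at -0.01 with that of the nup84 null; genes are not independent replicates, and what same-numbered samples share is not labelled.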
